A study of Mus musculus with 64 samples.

Results

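The 7 striated-muscle myosin heavy chain genes Myh7, Myh7b, Myh2, Myh1, Myh4, Myh3 and Myh8 were described across the study's 8 groups of mice. They were taken by gene symbol, as 7 of the 55401 Ensembl identifiers in the count table, and all 7 passed the filter on low counts that left 15241 genes for testing. RNA of gastrocnemius, a calf muscle, was sequenced from mice of C57BL/6JBomTac background aged 12 to 18 wk. The 8 groups crossed genotype, time of day (ZT3 or ZT15, hours after lights on) and treatment (a sedentary sham or 60 min of treadmill running at 16 m/min and 5% incline), and muscle was collected 3 h after the treatment.

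Mice of both genotypes carried Hif1α alleles with floxed exon 2. The HIF1α KO mice also carried Cre under the HSA promoter, which is active in muscle fibers, and fl/fl littermates without Cre were the controls, so cells other than fibers keep Hif1α by design in both. Each group held 4 males and 4 females, except that exercised HIF1α KO mice at ZT3 were 4 females and 3 males after the library of mouse 44, with 382 counts, was left out. The study used these mice to ask how muscle HIF1α bears on the response to exercise at different times of day, and for the myosin genes the comparisons ask which fiber-type transcripts each piece of muscle held. Each mouse was a separate animal.

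A myosin heavy chain is the motor of the thick filament, and its isoform sets how fast a fiber can shorten. Myh7 encodes the slow (type I) heavy chain, which the heart also uses, while Myh2, Myh1 and Myh4 encode the fast IIA, IIX and IIB chains, in order of rising speed. Myh3 is the embryonic and Myh8 the perinatal chain, both replaced by adult isoforms after birth, and Myh7b is an ancient relative of Myh7 found in slow muscle and heart. Mouse gastrocnemius is a mixed, mainly fast muscle whose slow and IIA fibers are gathered in its deep part.

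Myh3, Myh2, Myh1, Myh4 and Myh8 lay in that order on the plus strand of chromosome 11, within 230335 bp of GRCm38 (Myh3 at chr11:67078300-67102291, Myh2 at chr11:67171027-67197517, Myh1 at chr11:67200052-67224575, Myh4 at chr11:67238029-67260446 and Myh8 at chr11:67277124-67308634). Only 2534 bp separated the end of Myh2 from the start of Myh1. Myh7 lay apart on the minus strand of chromosome 14 (chr14:54970684-54994626) and Myh7b on chromosome 2 (chr2:155611212-155634307). All 7 are annotated as protein coding.

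The RefSeq promoter windows of the 3 adult fast genes and of Myh8 are shown because these genes are neighbors and share sequence blocks upstream of their starts. Each runs 5′ to 3′ across a RefSeq start on GRCm38.p6, plus strand. Capitals mark TTCTAATTATATCC, the longest run of bases shared by all 4 windows, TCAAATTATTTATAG, the longest shared by those of Myh1, Myh4 and Myh8, and the TATA box letters TATAAAA.
Myh2 (chr11:67170777-67171076): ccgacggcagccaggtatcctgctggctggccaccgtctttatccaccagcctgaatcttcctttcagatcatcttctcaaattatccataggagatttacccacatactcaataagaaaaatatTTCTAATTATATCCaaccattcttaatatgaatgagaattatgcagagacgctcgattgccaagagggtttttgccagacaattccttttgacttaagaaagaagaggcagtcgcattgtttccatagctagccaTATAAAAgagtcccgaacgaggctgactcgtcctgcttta
Myh1 (chr11:67199852-67200151): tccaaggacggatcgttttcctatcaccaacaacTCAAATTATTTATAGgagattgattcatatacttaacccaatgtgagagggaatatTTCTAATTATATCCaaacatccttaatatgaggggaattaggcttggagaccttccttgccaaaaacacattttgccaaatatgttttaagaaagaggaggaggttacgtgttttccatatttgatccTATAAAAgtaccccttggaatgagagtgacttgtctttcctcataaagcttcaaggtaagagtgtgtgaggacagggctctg
Myh4 (chr11:67237562-67237861): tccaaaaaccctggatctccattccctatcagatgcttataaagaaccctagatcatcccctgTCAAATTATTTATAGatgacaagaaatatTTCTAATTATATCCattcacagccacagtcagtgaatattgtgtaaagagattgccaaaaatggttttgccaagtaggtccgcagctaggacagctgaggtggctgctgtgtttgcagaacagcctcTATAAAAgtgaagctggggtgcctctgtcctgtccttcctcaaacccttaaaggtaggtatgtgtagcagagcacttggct
Myh8 (chr11:67276874-67277173): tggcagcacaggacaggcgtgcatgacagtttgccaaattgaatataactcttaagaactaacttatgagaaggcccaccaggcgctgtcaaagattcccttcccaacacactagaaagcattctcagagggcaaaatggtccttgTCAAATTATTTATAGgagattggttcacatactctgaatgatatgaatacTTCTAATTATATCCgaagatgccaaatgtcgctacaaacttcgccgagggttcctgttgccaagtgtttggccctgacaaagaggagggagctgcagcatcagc

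Searched on both strands of 32851 RefSeq promoter windows of this length, TTCTAATTATATCC occurred in 4, those of Myh2, Myh1, Myh4 and Myh8. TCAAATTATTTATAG occurred in 3 windows, those of Myh1, Myh4 and Myh8. Both runs were taken from these windows, so their rarity elsewhere is a description. TATAAAA occurred in 5.48% of all windows and in those of Myh3, Myh2, Myh1 and Myh4. Counted from the RefSeq start it began at -29 in Myh3, -32 in Myh1 and -31 in Myh4. In Myh2 it began at 10, downstream of the start shown. The core of the HIF binding motif, ACGTG, occurred in 19.6% of all windows and in those of Myh7b, Myh3 and Myh1. The E-box CANNTG, the kind of site that myogenic factors bind, occurred in 72.3% of all windows and is therefore common to most genes.

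Myh7 and Myh7b each host a microRNA in an intron. They are shown because both host genes were lower in males and varied together between mice, with bases 2 to 8, the seed, in capitals. These small RNAs are not measured by poly-A libraries, and only the host transcripts are described here.
mmu-miR-208b-3p (in Myh7, chr14:54975710-54975731, minus strand): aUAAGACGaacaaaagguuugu
mmu-miR-499-5p (in Myh7b, chr2:155622893-155622913, plus strand): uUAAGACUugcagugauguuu

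The 63 libraries held 2359780 to 40377963 counts (median 16236352), and 3 held under 5000000. Markers of skeletal muscle fibers were abundant in all 63, with 7 of 7 detected in every library and a summed level of 174359.8 to 266347 CPM (read counts scaled to a common library size, with TMM factors). Gene-level counts of Hif1a did not separate the genotypes, with a mean of 36.4 CPM in fl/fl (SD 6.31, n = 32) and the same mean in HIF1α KO mice (SD 4.80, n = 31), and a count over the whole gene does not check the removal of exon 2. The study itself reported fewer Hif1α transcripts in quadriceps of HIF1α KO mice than of fl/fl littermates. Library composition followed the mouse number, and mice 17 to 32 stood apart from the rest, as described below for each gene it touches.

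Myh4, the IIB chain, was by far the most abundant of the 7. Per kilobase of its annotated transcript it reached 10371 ± 2674 CPM per kb (SD, n = 63), followed by Myh1 with 669 ± 185, Myh2 with 422 ± 142 and Myh7 with 70.8 ± 46.2 CPM per kb. Myh4 was above Myh1 in 63 of 63 mice and their ranges did not overlap, while Myh1 was above Myh2 in 61 of 63 mice with overlapping ranges. Of the summed level of all 7 genes per kb, Myh4 made up 89.7% ± 2.35 (range 83.2% to 94.2%), Myh1 5.87% ± 1.18, Myh2 3.77% ± 1.13 and Myh7 0.631% ± 0.395 (SD, n = 63 for each).

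Myh8, Myh3 and Myh7b formed a low tier, 70.7-fold below Myh7 for its highest gene. Their levels were 1.00 ± 0.454, 0.947 ± 0.584 and 0.580 ± 0.329 CPM per kb (SD, n = 63). Myh8 was above Myh3 in only 37 of 63 mice, so the order of these neighbors did not stand above their spread. That order also depended on the length used. With the 11772 exonic bases of all annotated Myh8 transcripts in place of 6149, Myh8 fell to 0.523 ± 0.237 CPM per kb, under both others. The low tier rested on few reads, with medians of 80 counts a library for Myh8, 69 for Myh3 and 42 for Myh7b, against 895393 for Myh4.

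Parts of these transcripts cannot be told apart by short reads. Of the 52-base windows (the read length) in each transcript, 25.8% of both Myh2 and Myh1 also occur in another gene, mostly in each other. The share was 21.4% for Myh7, all of it with the cardiac gene Myh6, 20.6% for Myh8, 18% for Myh4, 4.41% for Myh3 and 0 for Myh7b. How reads matching several genes were counted is not given in the sources used here. The counts of Myh7, Myh2, Myh1, Myh4 and Myh8 are therefore uncertain, by an amount that was not tested. Each window stands for a single read, while the libraries were sequenced as read pairs. Myh8, at a mean of 6.16 CPM, shared 11.2% of its windows with Myh2, at 2566 CPM. The antisense gene Myhas shares 515 exonic bases with Myh1 and had a median of 511 counts, and without the strand setting reads of the pair cannot be told apart.

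**Figure D1:**
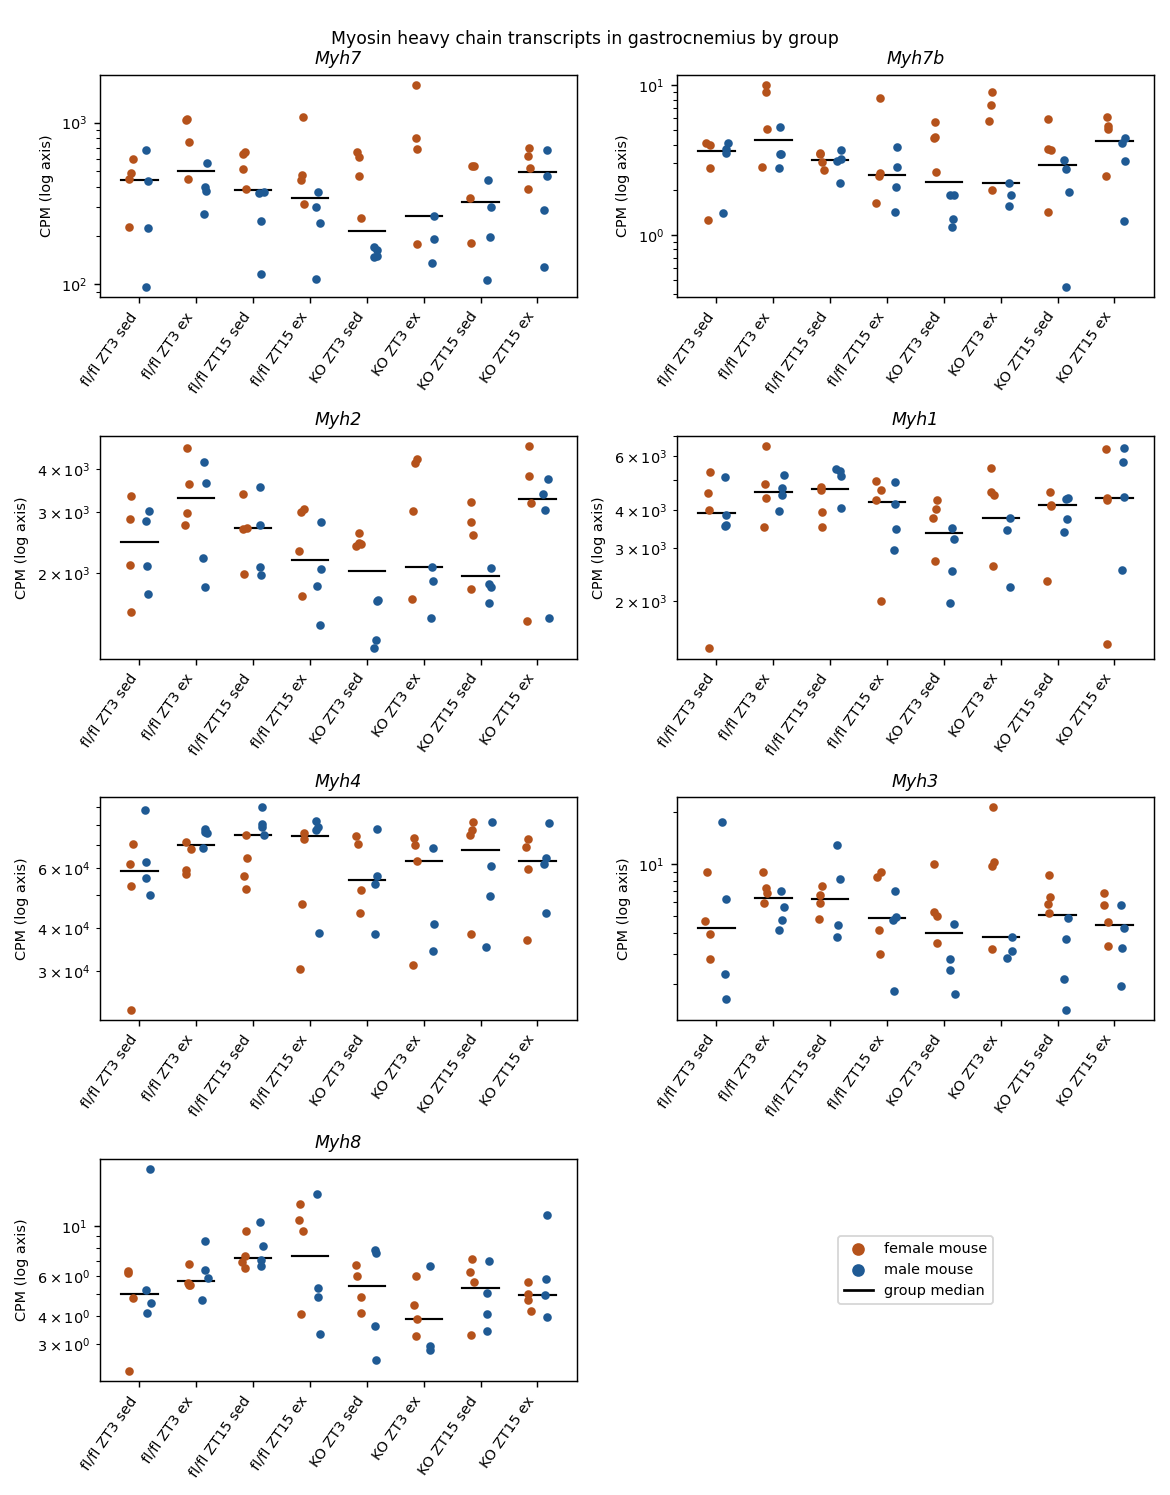
TMM-scaled CPM (log axis) of each gene in every mouse, by genotype, time of day and treatment (sed, sedentary; ex, exercised). Each point is a mouse, orange for females and blue for males, and each line is a group median; the 8 groups overlap for every gene, and the female points sit higher for Myh7 in most groups.

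In the averaged comparisons of genotype, time of day, treatment and sex, the largest estimate for any of the 7 genes was that of Myh7 between the sexes. Myh7, the slow chain, ranged from 178 through a median of 533 to 1720.5 CPM in 32 females, and from 96.0 through 264 to 679.7 CPM in 31 males. Females were thus shifted upward at both ends, although the ranges overlapped. On the log2 scale Myh7 was lower in males by -1.03 (SE 0.192, a fold of 0.491) with an adjusted p of 4.1e-05 by edgeR's quasi-likelihood test, in a fit of group and sex over all 63 mice.

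Myh7 was higher in females in the mean of 8 of 8 groups. In sedentary HIF1α KO mice at ZT3 the 4 females held 258, 466, 615 and 659 CPM, and the 4 males 147, 149, 163 and 169 CPM. In sedentary fl/fl mice at ZT15 the females held 390.3, 518, 636 and 661 CPM and the males 116, 248, 366 and 371 CPM. These were the 2 of 8 groups in which the sexes did not overlap for Myh7, and over all tested genes 6.51% of such sets of 8 mice did not overlap. In sedentary fl/fl mice at ZT3 the sexes overlapped widely, with 227, 445, 488 and 599 CPM in females and 96.0, 222, 436 and 679.7 CPM in males.

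Of the 7 genes, 4 passed an adjusted p of 0.1 between the sexes, all lower in males, where 25.1% of all 15241 tested genes passed in either direction and 11.8% were lower in males. Beside Myh7 these were Myh7b, Myh2 and Myh3. Myh7b, the slow-muscle relative, differed by -0.70 (SE 0.176, adjusted p = 0.00212), with 4.44 ± 2.32 CPM in females and 2.68 ± 1.15 CPM in males (SD, n = 32 and 31). Myh2, the IIA chain, differed by -0.35 (SE 0.104, adjusted p = 0.0104), with 2850.3 ± 844 CPM in females and 2273 ± 799 CPM in males. Myh3, the embryonic chain, differed by -0.53 (SE 0.199, adjusted p = 0.0516), with 6.69 ± 3.46 CPM in females and 4.70 ± 3.34 CPM in males. The female mean was higher in 7 of 8 groups for Myh7b, 8 of 8 for Myh2 and 6 of 8 for Myh3. In sedentary fl/fl mice at ZT3 and ZT15, female over male means were 0.95 and 1.04 for Myh7b. For Myh2 these ratios were 1.02 and 1.04, and for Myh3 0.73 and 0.85. In sedentary HIF1α KO mice at ZT3 they were 2.83, 1.69 and 2.07, in the order Myh7b, Myh2 and Myh3.

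The fastest adult chains did not pass the test. Myh1 differed by -0.037 (95% interval -0.25 to 0.18) and Myh4 by 0.086 (-0.12 to 0.29), and the perinatal Myh8 by 0.087 (-0.20 to 0.37). The mean of Myh4 was higher in females in 3 of 8 groups and in males in the others. The sexes did not overlap for Myh4 in 1 of 8 groups, sedentary fl/fl mice at ZT15 (74731 to 89832 CPM in 4 males, 52179 to 74724 CPM in 4 females), beside the 6.51% over all genes. As shares of the summed level per kb, Myh7 made up 0.847% ± 0.402 in females and 0.409% ± 0.234 in males, and Myh2 4.26% ± 1.00 and 3.25% ± 1.04 (SD, n = 32 and 31). The share of Myh4 ran the other way, 88.9% ± 2.13 in females and 90.6% ± 2.28 in males.

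The sex difference of Myh7 held within each run of 16 mouse numbers, at -1.28, -0.91, -1.23 and -0.73 (difference of mean log2 CPM) for mice 1 to 16, 17 to 32, 33 to 48 and 49 to 64. Those of Myh2 were -0.41, -0.19, -0.47 and -0.26 in the same order. With the runs as a covariate the same 4 genes passed, Myh7 by -0.999 (adjusted p = 2.25e-06). The call of Myh3 was lost with no filter on low counts (adjusted p = 0.107). All 4 calls were lost when the mean of 13 slow-fiber genes was added as a covariate, Myh7 then differing by -0.23 (adjusted p = 0.385). That covariate was not independent of sex, since 12 of the 13 genes were themselves lower in males. The fit therefore cannot show whether the sex calls are stable.

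Other genes of the slow and fast contractile apparatus differed between the sexes as well. Of 13 listed slow-fiber genes 12 were lower in males and none higher, with a list median of -0.63 beside -0.011 over all tested genes. They included Casq2, the slow and cardiac calsequestrin that binds calcium in the reticulum (-0.90, adjusted p = 4.15e-10), the slow regulatory light chain Myl2 (-0.84), the slow troponin T Tnnt1 (-0.91) and the slow troponin I Tnni1 (-0.95). Of 12 listed fast-fiber genes 6 were higher in males and none lower, with a median of 0.125. The fast light chain Myl1 (0.34, adjusted p = 5.71e-06), the Z-disc protein Myoz1 (0.31) and the fast troponins Tnni2 (0.25) and Tnnt3 (0.18) were among them.

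Of 9 tested developmental muscle genes, 4 were lower and 1 higher in males. Actc1, the cardiac actin of immature muscle, differed by -1.32 (adjusted p = 4.59e-07), the embryonic light chain Myl4 by -0.52 and the adhesion molecule Ncam1 by -0.32, while the myogenic factor Myf6 was higher by 0.18. Of 18 regulators of fiber type, 5 were higher and 3 lower in males. They included Eya1, a cofactor of homeobox factors (0.44), Tbx15, a factor of glycolytic fibers (0.27), and Rcan1, a calcineurin target (0.73), while Prox1, a factor of slow fibers, was lower (-0.44). None of 6 tested other myosin heavy chain genes passed between the sexes.

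Markers of other cell types moved with sex too. All 5 adipose markers were lower in males, with a summed level of 14.4 to 119 CPM in males and 27.8 to 133 CPM in females. Of the markers of nerve and Schwann cells 4 of 5 were lower in males (49.95 to 192 CPM against 67.8 to 260.5), and of those of tendon and fibroblasts 3 of 5 (277 to 1083 CPM against 288 to 1642). Of 3 markers of satellite cells, 1 was lower in males (8.52 to 19.6 CPM against 10.6 to 22.7). Blood markers were higher in males for 3 of 5 (80.9 to 529 CPM against 73.4 to 226), those of muscle fibers for 3 of 7 (175226 to 266347 CPM against 174359.8 to 257418), and those of smooth muscle and vessels for 2 of 5 (178 to 321 CPM against 168 to 295). None of the defining markers of fat, nerve or blood was at 0 in any library, and the part these cells play in the myosin differences was not tested. In bulk RNA, fewer fibers of a type and less RNA per fiber cannot be told apart.

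**Figure D2:**
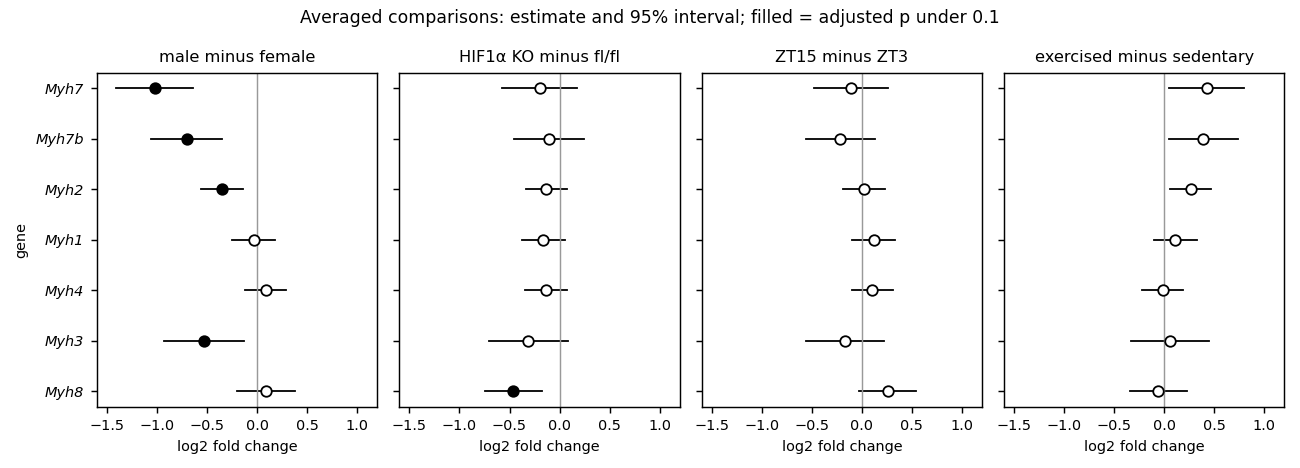
Estimated log2 fold change of each gene (x axis) with its 95% interval in the 4 comparisons averaged over the other factors, filled where the adjusted p was under 0.1. Filled points are Myh7, Myh7b, Myh2 and Myh3 between the sexes and Myh8 between the genotypes, and none for time of day or exercise.

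Between the genotypes, only Myh8 passed. Its levels ran from 2.28 through a median of 6.39 to 17.9 CPM in 32 fl/fl mice, and from 2.56 through 4.94 to 11.2 CPM in 31 HIF1α KO mice, so the ranges overlapped and the medians differed. Myh8, the perinatal chain, was lower in HIF1α KO mice by -0.46 on the log2 scale (SE 0.142, a fold of 0.726) with an adjusted p of 0.0448 by edgeR's quasi-likelihood test. This was 1 of the 7 genes, where 8.26% of all tested genes passed in either direction and 3.58% were lower in HIF1α KO mice.

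The 4 single comparisons of Myh8 had the same sign, -0.24 and -0.63 in sedentary mice at ZT3 and ZT15 and -0.485 and -0.48 in exercised mice, and none passed alone (adjusted p from 0.39 to 0.947). Within runs of mouse numbers the difference of mean log2 CPM was -0.445, -0.47, 0.040 and -0.35, so mice 33 to 48 did not share it. With no filter on low counts the adjusted p was 0.115. The call rested on a gene with a median of 80 counts a library, 20.6% of whose windows occur in other genes.

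The other 6 genes were lower in the mean of HIF1α KO mice without passing. Their averaged differences were -0.20 for Myh7 (95% interval -0.57 to 0.18), -0.11 for Myh7b (-0.45 to 0.24), -0.13 for Myh2 (-0.34 to 0.076), -0.16 for Myh1 (-0.38 to 0.051), -0.14 for Myh4 (-0.34 to 0.069) and -0.31 for Myh3 (-0.71 to 0.082). All 6 intervals held 0, and the widest, that of Myh3, reached down to -0.71. The genotypes were uneven over mouse numbers, with 10 HIF1α KO and 6 fl/fl mice among mice 17 to 32, whose mean levels of these genes were lower than those of the other runs. With the runs of 16 numbers as a covariate the differences were -0.12 for Myh7, -0.015 for Myh7b, -0.081 for Myh2, -0.088 for Myh1, -0.053 for Myh4 and -0.19 for Myh3 (adjusted p from 0.615 to 0.977), while that of Myh8 was -0.37 (adjusted p = 0.0627). Within the runs the difference of mean log2 CPM of Myh7 had both signs, at 0.30, -0.42, -0.74 and 0.35. No member passed in the single comparisons, where 0.400% and 0.0459% of all genes passed in sedentary mice at ZT3 and ZT15 and 1.43% and 0.400% in exercised mice.

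The sexes were also fitted alone. Myh8 then passed in neither, with a difference of -0.49 in males (SE 0.248, adjusted p = 0.214) and -0.41 in females (SE 0.144, adjusted p = 0.338). In males alone, where 14.7% of 15408 genes passed, 3 of the 7 genes did. Myh3 differed by -0.93 (SE 0.289, adjusted p = 0.052), Myh7b by -0.58 (SE 0.209, adjusted p = 0.078) and Myh4 by -0.37 (SE 0.128, adjusted p = 0.0715), all lower in HIF1α KO mice. In females alone, where 0.746% of 15140 genes passed, no member did, and these 3 genes had differences of 0.21, 0.28 and 0.077. Myh3 held 3.24 ± 1.24 CPM in HIF1α KO males and 6.07 ± 4.10 CPM in fl/fl males, against 7.20 ± 4.44 and 6.18 ± 2.12 CPM in females (SD, n = 15, 16, 16 and 16). The difference between the sexes itself, tested as an interaction of sex with genotype added after the data were seen, passed for none of the 7. The interaction of Myh3 was -1.14 (SE 0.367, unadjusted p = 0.00302, adjusted p = 0.436), and edgeR passed 7 genes in all, 0.0459% of those tested. By the same test Myh7b had -0.86 (unadjusted p = 0.0119) and Myh4 -0.44 (unadjusted p = 0.0335). For Myh7, Myh2, Myh1 and Myh8 the unadjusted p was above 0.05. Over all tested genes 1687 had an unadjusted p under 0.05, more than 1 in 20.

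Of the context lists, none of the slow-fiber genes and 1 of 12 fast-fiber genes passed between genotypes, the myosin light chain kinase Mylk2 (-0.16, adjusted p = 0.0972). Among 9 developmental genes, Actc1 (0.68, adjusted p = 0.0286) and the myogenic factor Myf5 (0.35, adjusted p = 0.0961) were higher in HIF1α KO mice. The smooth-muscle myosin Myh11 was lower (-0.26, adjusted p = 0.0838), 1 of 6 other myosin heavy chain genes, and none of 18 regulators of fiber type passed. Nerve and Schwann markers were lower in HIF1α KO mice for 4 of 5 (49.95 to 228 CPM against 60.0 to 260.5 in fl/fl), those of smooth muscle and vessels for 2 of 5 (median 212 CPM against 244), and those of tendon and fibroblasts for 1 of 5 (277 to 1642 CPM against 284 to 1450.3). Adipose, blood, fiber, immune and satellite-cell markers held no gene that passed, and the part of other cells in the Myh8 value was not tested.

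Exercise left no member past the threshold, where 2.84% of all genes passed, although the estimates of Myh7, Myh7b and Myh2 were above 0. Myh7 held 108 to 1720.5 CPM (median 441) in 31 exercised mice and 96.0 to 679.7 CPM (median 369) in 32 sedentary mice, a difference of 0.42 (95% interval 0.049 to 0.80, unadjusted p = 0.0274, adjusted p = 0.351). Myh7b differed by 0.39 (0.043 to 0.74, adjusted p = 0.354) and Myh2 by 0.27 (0.060 to 0.47, adjusted p = 0.242). For Myh1, Myh4, Myh3 and Myh8 the estimates were 0.11, -0.014, 0.059 and -0.060. The highest exercised mouse weighed on the Myh7 value, which was 0.31 without mouse 53. Within the 4 runs of 16 mouse numbers, exercised minus sedentary mean log2 CPM of Myh2 was -0.014, 0.030, 0.24 and 0.71, in number order. The Myh2 difference was thus near 0 in mice 1 to 16 and 17 to 32 and largest in mice 49 to 64. For Myh7b these differences were 0.18, 0.17, 0.35 and 0.82, and for Myh7 0.27, 0.33, 0.32 and 0.75.

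In the single comparisons, Myh2 was higher by 0.39 in fl/fl and by 0.41 in HIF1α KO mice at ZT3, by 0.50 in HIF1α KO mice at ZT15, and lower by -0.23 in fl/fl mice at ZT15. No member passed in these comparisons, in the same order, where 0.236%, 0.131%, 0.0591% and 0% of all genes did. Where edgeR passed 0 genes, in fl/fl mice at ZT15, 1406 had an unadjusted p under 0.05, more than 1 in 20. Among the context lists 1 of 13 slow-fiber genes rose with exercise, Csrp3, a Z-disc protein of stretched muscle (0.66, adjusted p = 0.00478), and 12 of 13 estimates were above 0 with a median of 0.27, against -0.0037 over all genes. Mylk2 fell (-0.18), the nonmuscle myosin Myh10 (0.25) and the myogenic factor Myf6 (0.36) rose, and of 18 regulators Ppargc1a, the coactivator of oxidative metabolism (1.22, adjusted p = 5.05e-12), Rcan1 (0.43) and the orphan receptor Esrrg (0.28) rose while Six4 fell (-0.18). Of the marker lists, 1 of 3 satellite-cell genes was lower after exercise.

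Time of day also left no member past the threshold, where 8.02% of all genes passed. The averaged differences of ZT15 from ZT3 were -0.11 for Myh7, -0.22 for Myh7b, 0.020 for Myh2, 0.12 for Myh1, 0.10 for Myh4, -0.17 for Myh3 and 0.26 for Myh8 (SE 0.102 to 0.194, adjusted p from 0.355 to 0.955). Myh4, for instance, held 60260.5 ± 15415 CPM at ZT3 and 64455 ± 16698 CPM at ZT15 (SD, n = 31 and 32). Myh8 passed as higher at ZT15 only when mouse 5 was left out (0.38, adjusted p = 0.0617). No member passed in the single comparisons, where 1.88% and 1.18% of all genes passed in sedentary and exercised fl/fl mice and 0.479% and 0.663% in HIF1α KO mice, the nearest being Myh2 in exercised fl/fl mice (-0.51, unadjusted p = 0.0163, adjusted p = 0.294).

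Several muscle transcription factors did pass with time of day. Of 9 developmental genes the myogenic factors Myod1 (1.49, adjusted p = 1.74e-13) and Myog (0.67) were higher at ZT15. The regulators of fiber type that passed included Tbx15 (0.21) and Vgll2 (0.42), both higher, and Sox6, a repressor of slow genes (-0.14), which was lower. Casq2 was lower at ZT15 (-0.41), as 1 of 13 slow-fiber genes, and no fast-fiber gene passed. Of the marker lists, 1 of 5 tendon and fibroblast genes was higher at ZT15.

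None of the 3 interactions of genotype, time of day and exercise passed for any member or for any of the 15241 genes by edgeR. In these tests 306 to 648 genes had an unadjusted p under 0.05, fewer than the 1 in 20 that chance alone gives. The smallest unadjusted p of a member was that of Myh2 for genotype by time of day (0.44, SE 0.206, unadjusted p = 0.0386, adjusted p = 0.981). The largest estimates were those of Myh3, 0.58 (SE 0.388) for genotype by exercise and -0.54 (SE 0.389) for exercise by time of day.

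Spread between mice of the same group was wide for the slow chain. Within groups, the coefficient of variation of Myh7 ran from 42% to 101% and the highest mouse exceeded the lowest 3.86-fold to 12.7-fold, while the 8 group means differed by at most 1.87-fold. About 30 mg of each muscle was taken, and the labels do not say from which region. Group medians of Myh7 lay between 213 CPM in sedentary HIF1α KO mice at ZT3 and 505 CPM in exercised fl/fl mice at ZT3. For Myh4 the coefficient of variation was 11% to 33.3%, and for Myh2 23% to 44%. For no gene did any of the 28 pairs of groups fail to overlap, where over all genes 0.204% of pairs did not overlap.

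The edgeR estimate of biological variation put these spreads on a common scale. It was 0.499 for Myh7 and 0.504 for Myh3, at percentiles 97.2 and 97.4 of all 15241 genes, whose median was 0.193. For Myh2, Myh1 and Myh4 it was 0.282, 0.293 and 0.281, at percentiles 75.8 to 78.1. Sex accounted for 33% of the variance of log2 CPM of Myh7 and the 8 groups for 10.6%. For Myh4 these shares were 1.61% and 10.8%. Each share, here and for mouse number below, was taken for a single factor without correction for its number of levels. A factor with more levels takes a larger share even of unrelated values, so the 8 groups and the sexes are not on equal terms.

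Mouse number took a larger share than sex or the 8 groups for 6 of the 7 genes. The 4 runs of 16 numbers accounted for 66.0% of the variance of Myh4, 53.3% of that of Myh1, 31.9% of that of Myh2 and 31.1% of that of Myh8. For Myh7b the runs took 26.3% beside 17.98% for sex, and for Myh3 18.3% beside 15.2%. For Myh7 they took 23.6%, less than sex. In mice 17 to 32 Myh4 had a median of 38733 CPM (23182 to 64236), against medians of 74426, 68385 and 68610.3 CPM in the other runs. Myh1 had a median of 2659 CPM in these mice against 4377, 4538 and 4432, Myh2 1707 against 2752, 2691 and 3087, and Myh7 211 against 418, 441 and 581. All 4 were thus lower together, and the share of Myh4 among the 7 genes per kb, 89.5% ± 1.89 (SD, n = 16), was close to the 88.9% to 90.7% of the other runs. Each run held 7 to 9 mice of each sex and 6 to 10 of each genotype. Scaling factors had a higher median in mice 17 to 32 (1.09 against 0.993 to 1.01), with overlapping ranges. The part of library composition in these levels was not tested.

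**Figure D3:**
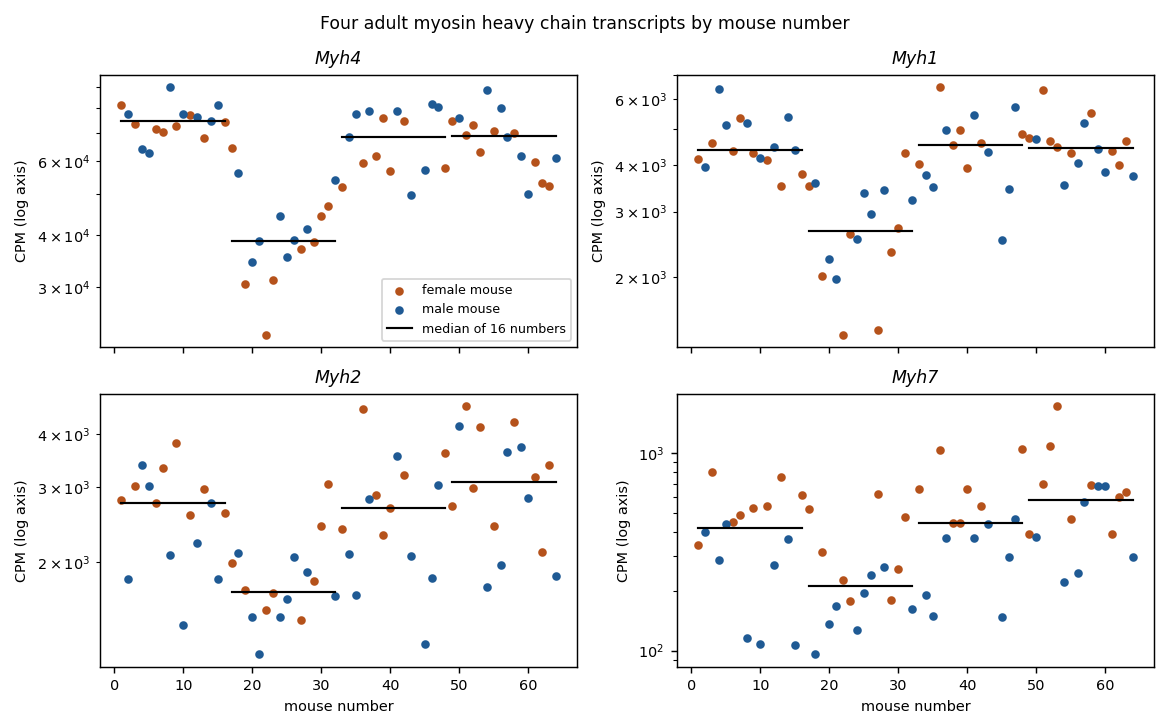
TMM-scaled CPM (log axis) of Myh4, Myh1, Myh2 and Myh7 against mouse number, with a line at the median of each run of 16 numbers. Points of mice 17 to 32 lie lower for all 4 genes, and most clearly for Myh4, and male and female points are mixed within each run.

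After group and sex means were taken out, r between the 21 pairs of genes ran from 0.179 for Myh7 with Myh8 (rho 0.154, permutation p = 0.162 and 0.228, adjusted p = 0.162 and 0.228) to 0.813 over 63 mice. With the means of the runs taken out too, r was -0.133 for Myh4 with Myh3, -0.0553 for Myh7 with Myh8 and 0.000661 for Myh7b with Myh8, so not all 7 genes varied together. The most alike pairs were Myh2 with Myh1 at r = 0.813 (rho 0.766), the IIA and IIX chains, and Myh7 with Myh7b at r = 0.763 (rho 0.776), over 63 mice. By a two-sided permutation test each had p = 1e-05, the smallest that 100000 permutations can give, and an adjusted p of 2.33e-05 for r and 2.62e-05 for rho over 21 pairs. Without the 2 mice farthest from the median of the first gene these r were 0.766 and 0.749, and with the means of the mouse-number runs taken out 0.737 and 0.665.

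The slow chain and the fastest chain were less alike. Myh7 and Myh4 had r = 0.296 (rho 0.206, permutation p = 0.0191 and 0.106, adjusted p = 0.0223 and 0.111), or 0.31 without the 2 farthest mice, and -0.117 with the runs taken out. For Myh1 and Myh4 r was 0.739 (rho 0.624, adjusted permutation p = 2.33e-05 and 2.62e-05), 0.684 without the 2 farthest mice and 0.404 with the runs taken out. Myh3 and Myh8 had r = 0.528 (rho 0.519, adjusted permutation p = 5.73e-05 and 4.2e-05), 0.438 without the 2 farthest mice and 0.372 with the runs taken out. The pairs share libraries, and Myh2 and Myh1 also share sequence. All permutation p-values of these pairs belong to r and rho with the runs left in.

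**Figure D4:**
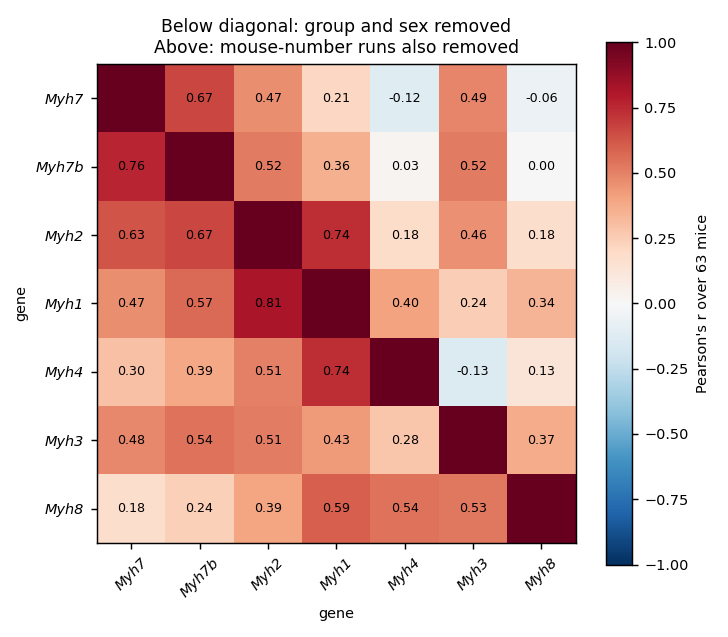
Pearson's r between the 7 genes over 63 mice, on log2 CPM with group and sex means removed (below the diagonal) and with the means of the 4 mouse-number runs removed as well (above). The highest value below the diagonal is Myh2 with Myh1 at 0.81, and Myh7 with Myh4 goes from 0.30 to -0.12.

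Against the mean of the 13 slow-fiber genes, again with group and sex means removed, Myh7 had r = 0.720 and rho = 0.724 over 63 mice. The two-sided permutation p was 1e-05 for each, the smallest that 100000 permutations can give, and the adjusted p over the 7 genes was 7e-05. Without mice 53 and 15, the farthest from the median of the list, r was 0.683. Within the 4 runs of mouse numbers it was 0.891, 0.654, 0.868 and 0.925 (16, 16, 15 and 16 mice).

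The other members had lower r with the list. For Myh7b r was 0.460 (rho 0.482, adjusted permutation p = 0.00056 and 0.00035) and for Myh2 0.302 (rho 0.392, adjusted permutation p = 0.0222 and 0.00296), with 0.392 and 0.263 without the 2 farthest mice. For Myh3 r was 0.300 (rho 0.239, adjusted permutation p = 0.0222 and 0.0821) and 0.218 without them. For Myh1 r was -0.00438 (rho 0.127, adjusted permutation p = 0.973 and 0.371) and -0.0192 without them, and for Myh8 -0.105 (rho -0.102, adjusted permutation p = 0.480 and 0.427) and -0.0995 without them. For Myh4 the sign was negative, r = -0.374 (rho -0.399, adjusted permutation p = 0.00604 and 0.00273), and -0.409 without the 2 farthest mice. The mouse-number runs were left in for these values, and the permutations shuffled mice across runs. Since the runs took 66.0% of the variance of Myh4 and 53.3% of that of Myh1, these r and p-values include differences between runs. Their size within runs was not tested.

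**Figure D5:**
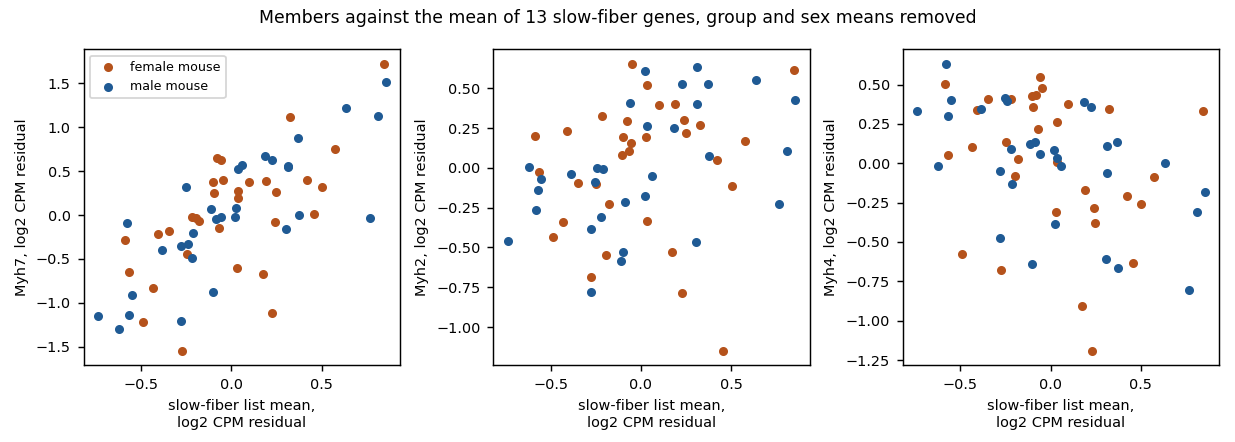
Residual log2 CPM of Myh7, Myh2 and Myh4 against that of the mean of 13 slow-fiber genes, after group and sex means were removed, 1 point per mouse (orange female, blue male). Points rise for Myh7 (r = 0.720), rise less for Myh2 (r = 0.302) and fall for Myh4 (r = -0.374), with the mouse-number runs left in.

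The genes whose pattern over the 63 mice was most like each adult chain were found among the 15241 tested, by Pearson's r with group and sex means removed. They are given as a description, since they were picked for a high r. For Myh7 they were Atp2a2, the calcium pump of slow muscle and heart (r = 0.926), Tnnt1 (0.849), Pcp4l1 (0.731), Frem2 (0.720) and the slow troponin C Tnnc1 (0.681), and 3 of these 5 are on the slow-fiber list. For Myh2 they were the magnesium transporter Slc41a1 (0.850), the M-band protein Myom3 (0.823), the slow-type myosin-binding protein Mybpc1 (0.818), Fgf1 (0.810) and Nrap (0.783).

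For Myh1 they were the muscle kinase Alpk3 (0.873), the mitochondrial enzymes Sdha (0.870), Cs (0.867) and Ogdh (0.845), and St3gal5 (0.853). For Myh4 they were Ehbp1l1 (0.968), Dnajb12 (0.944), the translation factor Eif4g1 (0.940), Vwa8 (0.938) and the nonmuscle myosin Myh14 (0.937). None of the 5 genes most like Myh4 is on the list of 12 fast-fiber genes. The runs of mouse numbers were left in for these values.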

How the data were processed

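Per the labels and the study's methods, poly-A RNA of about 30 mg of gastrocnemius was sequenced (stranded kit, 52-bp paired-end), and the authors aligned reads to mm10 with STAR and counted them with featureCounts. Versions, annotation release, strand setting and the handling of reads matching several genes are not given in the sources used here. The deposited values are raw counts per gene. Identifiers were matched to GENCODE M21 (55141 of 55401, 54349 with the same version), and promoter and microRNA sequences came from RefSeq (GRCm38.p6).

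The library of mouse 44 was left out. Groups, sexes and mouse numbers came from the labels. The 63 libraries were scaled by TMM, filtered by filterByExpr (minimum count 10) and fitted in edgeR 4.0.16 (R 4.3.3) with robust quasi-likelihood models of group plus sex over all 15241 genes. P-values were adjusted by Benjamini and Hochberg over all genes of a comparison, with a threshold of 0.1. Averaged comparisons are means of the 4 single ones. Standard errors were derived from the F statistic, and 95% intervals used 54 degrees of freedom. log2 CPM used a prior count of 2. Correlations (scipy 1.17.1) used 100000 permutations. DESeq2 1.42.0, other filters, scalings, covariates and left-out libraries were tried as alternatives. All 7 genes are named, and from each context list at most 4 genes with the smallest p per comparison among those that passed. The 5 genes most like each of Myh7, Myh2, Myh1 and Myh4 are also named. The models were tested on simulated counts that changed between the sexes alone and held no differences between mouse-number runs. A log2 change of 1 was recovered in 99.0% of 99 genes and a change of 0.5 in 79.4% of 97. The members and lists were chosen with earlier results of these data known. Counts limit precision, since 1 CPM was 2.36 counts in the shallowest and 40.4 in the deepest library. The result for 1 gene of the context lists is not reported here.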

Additional observations from a re-analysis of the deposited data

Results flagged for a closer look

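In 9 of 56 sets of gene and group a single mouse stood far from the other mice of its group. Dixon's criterion was used at the 95% level, which flags about 1 in 20 groups (2.80 of 56) for independent, normally distributed values. It was applied to CPM values without log transform, in groups that held both sexes, and the genes were measured in the same mice. The count of 9 therefore cannot be read as an excess over chance, and the mice are listed as a description. All values listed are CPM. Mouse 53, an exercised HIF1α KO mouse at ZT3, was high in Myh7 (1720.5 against 136 to 804 in the others) and in Myh3 (21.4 against 2.85 to 10.3). Mouse 52, an exercised fl/fl mouse at ZT15, was high in Myh7 (1086 against 108 to 474) and in Myh7b (8.16 against 1.42 to 3.87). Both are females. Mouse 5, a sedentary fl/fl male at ZT3, was high in both developmental chains, Myh3 (17.5 against 1.64 to 8.95) and Myh8 (17.9 against 2.28 to 6.36).

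Mouse 33, a sedentary HIF1α KO mouse at ZT3, was high in Myh3 (10.1 against 1.75 to 5.29). Mouse 4, an exercised HIF1α KO mouse at ZT15, was high in Myh8 (11.2 against 3.96 to 5.86). The single low value was that of mouse 22, a sedentary fl/fl mouse at ZT3, in Myh1 (1402 against 3528 to 5348). It also had the lowest Myh4 level of all 63 mice, 23182 CPM. Mouse 22 is among mice 17 to 32, which were lower in Myh1 and Myh4 as a run, as described above.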

How the results depend on the processing

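No paired analysis was possible because each mouse number occurs once in the series. In the averaged comparison of genotypes 1 member passed, and 0 passed with at least 1 count in 1 library as the filter, 3 in males alone and 0 in females alone. Between the sexes 4 passed, and 3 with at least 1 count in 1 library, Myh3 then being lost. With the slow-fiber mean as covariate, whose own genes were mostly lower in males, 0 passed. The Myh8 genotype call was lost with at least 1 count in 1 library as the filter and in each sex alone. For time of day 0 passed, and leaving out 1 mouse gave 0 to 1, the 1 being Myh8 without mouse 5. The other alternatives, DESeq2 among them, left these counts within 1.5 times, and the single comparisons and interactions had no member called under any setting. The cause of these changes was not tested.

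Signs turned in 26 values, none of which passed the threshold on either side. Between genotypes in females alone the log2 difference was 0.28 for Myh7b, 0.061 for Myh2, 0.077 for Myh4 and 0.21 for Myh3. For time of day Myh7 was 0.14 with the slow-fiber mean as covariate and 0.17 in males, Myh7b 0.10 in males, and Myh3 0.022 and 0.023 in the same order. Myh2 was -0.023 without libraries under 5000000 counts, -0.024 with the mitochondrial rRNA share as covariate and -0.065 in females, and Myh1 -0.035 in females. For exercise Myh4 was 0.0089 without those libraries and 0.10 with the slow-fiber mean, Myh3 -0.12 with it and -0.13 in males, and Myh8 0.019 in females. Between the sexes Myh1 was 0.0048 with mouse-number runs as covariate and Myh4 -0.15 with the slow-fiber mean. Leaving out 1 mouse gave -0.17 to 0.0018 for Myh7 and -0.0037 to 0.050 for Myh2 with time of day. It gave -0.045 to 0.011 for Myh4, -0.055 to 0.21 for Myh3 and -0.12 to 0.048 for Myh8 with exercise, and -0.019 to 0.13 for Myh8 between the sexes. The 4 sex calls and the Myh8 genotype call held in all 63 fits that left out 1 mouse, the latter with an adjusted p of 0.0167 to 0.0988. Low counts limit Myh7b, Myh3 and Myh8, and Myh7b was not tested when 10 counts in every library were required.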

Other observations

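A noncoding RNA gene between Myh3 and Myh2, 2310065F04Rik (chr11:67112461-67120080, minus strand, annotated as a lincRNA), differed with genotype and with sex. It was chosen after its values were seen. In 32 fl/fl mice it held 70.0 ± 23.6 CPM and in 31 HIF1α KO mice 44.2 ± 15.9 CPM (SD). It was lower in HIF1α KO mice by -0.66 on the log2 scale (SE 0.0875) with an adjusted p of 2.03e-07, and higher in males by 0.695 (SE 0.0874) with an adjusted p of 4.22e-09 by edgeR's quasi-likelihood test. Time of day and exercise did not pass. Its levels in the 4 sets of genotype and sex were 54.8 ± 12.6 CPM in fl/fl females, 85.3 ± 22.3 CPM in fl/fl males, 33 ± 8.30 CPM in HIF1α KO females and 56.2 ± 13.1 CPM in HIF1α KO males (SD, n = 16, 16, 16 and 15).

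Myhas, the RNA antisense to Myh1, held 16.7 to 53.3 CPM and passed in none of the 4 averaged comparisons. Its genotype difference was 0.135 (SE 0.0801, adjusted p = 0.339). The antisense gene 9430073C21Rik, which overlaps Myh2, held at most 2.22 CPM and passed in none either.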
